A study of Saccharomyces cerevisiae with 26 samples.

Results

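Gene expression at day 17 was compared with gene expression at day 1 in yeast held in alginate beads, the ends of a bead culture sampled at days 1, 3, 5, 10 and 17. The comparison used 7 of the 26 arrays of the series, chosen by their titles, 3 of day 17 and 4 of day 1. All came from haploid S288C cells, the standard laboratory strain of Saccharomyces cerevisiae, of mating type alpha. The cells were enclosed in 3 mm calcium alginate beads, of which 100 mL were packed in a reactor of 300 mL and fed at 6 L per h. The feed was a synthetic medium with 100 g/L glucose at 32.5 °C and pH 5.5, renewed when glucose dropped below 1%. Days 1 and 17 shared this strain, medium and temperature and the extraction method for beads, and differed in the time spent in the beads. The other 19 arrays were beads of days 3, 5 and 10, free cells in log phase, stationary phase and a chemostat, and day 0, where labels conflict on whether the cells were already in beads. They entered the estimate of the spread and serve as points of reference. The labels do not say whether the arrays of a day came from separate reactors, so the spread behind each p-value is that between these samples and may be technical.

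Alginate is a gel through which nutrients diffuse while the enclosed cells are held in place, and immobilized yeast goes on fermenting sugar while hardly dividing. Such cells can be followed through chronological ageing, the ageing of cells that do not divide, without the starvation that usually accompanies it. Haploid cells of mating type alpha make the pheromone alpha-factor and answer the pheromone of the opposite type, a. Meiosis and sporulation are normally taken up by starved diploid cells and are repressed in haploids.

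The values are log2 of the deposited ratios. No source states their reference, but the values of each probe set have a median ratio near 1 over the 26 arrays, so 0 appears to be a gene's own median and levels of different genes cannot be compared. A change is the day 17 mean minus the day 1 mean, in log2, ± SE. A gene was called at an adjusted p under 0.05 from limma over 5445 genes with at least a 2-fold change. The number of arrays limits the precision.

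Of the 5445 genes, 16 were called (0.294%), 14 higher at day 17 (0.257%) and 2 lower (0.0367%). At an unadjusted p under 0.05 there were 1099 genes. With quantile normalization repeated over the genes, 51 were called, 31 higher and 20 lower, so that 60.8% of calls were higher against 87.5%. Adjusted p in limma lay between 0.0431 and 0.0493 for all 16, so each call stood close to the threshold. That model takes its spread from all 9 groups, and the median SD per gene was 0.482 at day 1 but 0.093 to 0.169 in the free cells and at day 0. With only the 7 arrays in the model, with only the 18 bead arrays, and with these and the 3′ minus 5′ signal as covariate, 0 genes were called in limma, at 487, 874 and 1042 genes with an unadjusted p under 0.05. The adjusted p of the 16 genes was then 0.556, 0.151 to 0.168 and 0.0962 to 0.118, so every call named below ended in these models. The median change over all genes was 0.03. The 4 arrays of day 1 did not overlap with the 3 of day 17 in 370 genes (6.80%), 187 of them higher (3.43%) and 183 lower (3.36%) at day 17.

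The day 1 arrays were not alike. For correlations between arrays, each gene was centred on its mean over all arrays of the series. The profile of replicate 4 over all genes then correlated at -0.39, -0.39 and -0.29 with replicates 1 to 3 of its own day. With the 3 arrays of day 17 the same array correlated at 0.56, 0.57 and 0.38, and with day 10 at 0.76, 0.60 and 0.55. Points of these correlations are genes, which are not independent, and neighbouring values share the normalization. The median distance of a gene from its day 17 mean was 0.206 on this array, against 0.404, 0.602 and 0.504 on replicates 1 to 3. The median SD per gene at day 1, the widest of the 9 groups, was 0.406 without replicate 4, against 0.254 at day 17. Day 17 was not uniform either: replicates 2 and 3 correlated at 0.70 with each other, and replicate 1 at 0.32 and 0.24 with them but at 0.88 with day 3 replicate 3 and 0.86 with day 5 replicate 3. Results are therefore given with all arrays first and then without day 1 replicate 4. That array was singled out for its likeness to day 17, so leaving it out raises the number of calls and the size of many changes by construction. The values without it describe the other 6 arrays and are no independent evidence of a difference between the days. What sets that array apart was not tested.

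Signs of RNA quality and of the added controls also varied. The mean 3′ minus 5′ signal of 8 control genes was -0.19, -0.26, 0.49 and 0.04 on the day 1 arrays and 0.34, 0.17 and 0.22 on those of day 17. The poly-A spikes stood at -1.17, -0.47, -1.78 and -0.54 at day 1. At day 17 they stood at 1.11, -2.82 and -2.71, so replicate 1 carried far more spike signal than the other two. The part of these differences in the results was not tested beyond the fits named at the end of the text.

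Without day 1 replicate 4, 657 genes were called (12.1%), 410 higher (7.53%) and 247 lower (4.54%), among them all 16. Of these calls 62.4% were higher, and with quantile normalization repeated as well 354 of 692 were (51.2%). Leaving out day 1 replicate 1, 2 or 3 instead left 0 calls in limma, with 808, 856 and 855 genes at an unadjusted p under 0.05. Without day 17 replicate 1 there were 47 calls, 25 higher and 22 lower, which included 10 of the 16. Without day 17 replicate 2 or 3 there were 0 calls in limma, with 669 and 811 genes at an unadjusted p under 0.05. The count of called genes thus turned on single arrays of both days.

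**Figure D1:**
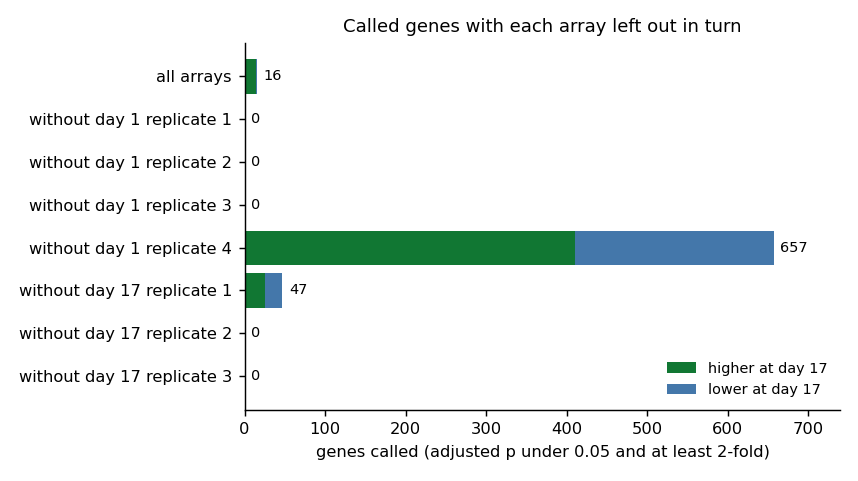
Number of genes called in day 17 against day 1 (horizontal axis, genes) with all arrays and with each of the 7 arrays left out in turn, split into genes higher (green) and lower (blue) at day 17. With all arrays 16 genes were called, without day 1 replicate 4 657, without day 17 replicate 1 47, and in the other 5 cases 0.

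GIT1 (YCR098C) takes up glycerophosphoinositol, a breakdown product of membrane lipids that can serve as a source of phosphate. Its log2 ratios were -1.28, -0.98, -2.63 and 1.14 at day 1 and 1.88, 1.93 and 1.53 at day 17. The day 17 arrays all lay above the day 1 arrays, of which replicate 4 came nearest. The change was 2.71 ± 0.57 (limma adjusted p = 0.0493), or 3.41 ± 0.44 without that array. GIT1 was the 1 called gene of 26 in the phosphate starvation list, against 0.257% of all genes called higher, and the list's median change was 0.12. Without replicate 4, 3 genes of that list were called higher and 1 lower (15.4%, against 12.1% of all genes). FCY22 (YER060W-A), a putative purine-cytosine permease, stood at -1.43, -2.38, -2.47 and 0.31 at day 1 and at 1.44, 0.93 and 0.75 at day 17. It rose by 2.53 ± 0.49 (limma adjusted p = 0.0431), again with no overlap and with replicate 4 the highest array of day 1.

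VBA3 (YCL069W) belongs to a family of vacuolar permeases for basic amino acids, and its probe set can also bind other transcripts. The day 1 values were -2.27, -2.47, -2.47 and 0.14, and those of day 17 were -0.06, 0.90 and 1.48. Here replicate 4 of day 1 lay above replicate 1 of day 17, so the groups overlapped, while the change was 2.54 ± 0.48 (limma adjusted p = 0.0431). ZRT1 (YGL255W), the high-affinity zinc transporter, stood at -0.77, -1.16, -0.91 and 0.11 against 0.94, 0.46 and 0.23. Its day 17 arrays lay above all of day 1, and it rose by 1.23 ± 0.25 (limma adjusted p = 0.0431). ZRT1 was the 1 called gene of 19 in the copper and zinc list, against 0.257% of all genes called higher. The list's median change was 0.27.

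AAD10 (YJR155W), a putative aryl-alcohol dehydrogenase, had log2 ratios of -2.20, -2.39, -2.81 and 0.04 at day 1 and 0.15, 0.98 and 0.84 at day 17. Day 17 replicate 1 lay just above day 1 replicate 4, and the change was 2.49 ± 0.44 (limma adjusted p = 0.0431). PHM7 (YOL084W), a membrane protein whose transcript follows the phosphate supply, stood at -1.69, -2.07, -2.77 and -0.08 against 0.72, 0.90 and 0.18. It rose by 2.25 ± 0.44 (limma adjusted p = 0.0431), with no overlap. The gene stood at 1.48 in the mean of day 0 and 1.98 in stationary phase, both above the 0.60 of day 17. In log phase and the chemostat its means were lower, at -4.02 and -0.46. PHM7 was the 1 called gene of 26 in the list of quiescence and stationary-phase genes, against 0.257% of all genes called higher. The median change of that list was 0.34.

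Both called genes of the meiosis and sporulation list were among the 14. HOP1 (YIL072W), a protein of the meiotic chromosome axis, stood at -1.15, -0.84, -1.48 and 0.13 at day 1 and at 0.28, 1.16 and 1.48 at day 17. IME4 (YGL192W), which methylates adenosine in messenger RNA at entry into meiosis, stood at -0.94, -1.26, -1.05 and 0.01 against 0.11, 1.45 and 1.51. In both genes the day 17 arrays lay above all of day 1, and day 17 replicate 1 was close to day 1 replicate 4. The changes were 1.81 ± 0.33 for HOP1 (limma adjusted p = 0.0431) and 1.83 ± 0.40 for IME4 (limma adjusted p = 0.0493). In bulk RNA, more cells that express a gene and more RNA per cell cannot be told apart.

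DAN4 (YJR151C), a cell wall mannoprotein made in the absence of oxygen, had log2 ratios of 0.27, -0.59, -0.11 and 0.27 at day 1 and 1.66, 1.03 and 1.12 at day 17. Replicates 1 and 4 of day 1 had the same value here, and all day 17 arrays lay above all day 1 arrays. The change was 1.31 ± 0.27 with all arrays (limma adjusted p = 0.0431) and 1.41 ± 0.28 without replicate 4. DAN4 was the 1 called gene of 31 measured in the anaerobic and hypoxic list, against 0.257% of all genes called higher. The median change of that list was 0.12. DAN1, a related mannoprotein, was left out of the test for missing values at day 0; it stood at 0.35, -0.43, 0.62 and -0.18 at day 1 and at 0.23, 0.29 and 0.53 at day 17.

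YLR154C-H was the 1 called gene in which another array of day 1, replicate 3, came nearest to day 17 on its own. It stood at -1.63, -0.65, -0.34 and -0.69 at day 1 and at 0.48, 1.41 and 1.23 at day 17, without overlap, and rose by 1.86 ± 0.40 (limma adjusted p = 0.0493). In the RefSeq annotation of assembly R64 it overlaps a 5S ribosomal RNA gene on the opposite strand, and its probe set can bind several transcripts. The ribosomal RNA controls on the arrays stood at -0.63, -0.66, -2.55 and -1.29 at day 1 and at 2.73, 1.06 and -1.43 at day 17. These controls are for the larger ribosomal RNAs and not for 5S. The part of ribosomal RNA in the value of the gene was not tested.

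The remaining genes called higher were ECM23 (YPL021W), a zinc finger protein of the GATA family, at 1.96 ± 0.39, PRM4 (YPL156C), a membrane protein induced by pheromone, at 1.62 ± 0.35, YHR213W-A at 1.60 ± 0.33 and TDA7 (YNL176C) at 1.01 ± 0.22. ECM23 stood at -1.54, -1.38, -1.40 and 0.34 at day 1 and at 0.42, 1.45 and 1.02 at day 17. PRM4 stood at -1.11, -1.21, -1.83 and 0.29 against 0.62, 0.79 and 0.55. In these 4 genes the 3 arrays of day 17 lay above the 4 of day 1, with replicate 4 nearest.

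Both genes called lower have no role given here. YMR209C stood at 0.82, 0.90, 0.96 and -0.01 at day 1 and at -0.10, -0.60 and -0.48 at day 17 and fell by 1.06 ± 0.22 (limma adjusted p = 0.0431). YPL199C stood at 0.49, 0.47, 0.60 and 0.09 against -0.68, -0.50 and -0.63 and fell by 1.02 ± 0.22 (limma adjusted p = 0.0493). Neither gene showed overlap, and in both replicate 4 was the day 1 array nearest to day 17. Across the 16 genes replicate 4 was by itself the nearest day 1 array in 14 and tied for it in 1, DAN4, against 2828 (51.9%) and 15 of all 5445 genes. TDA7 and VBA3 are named outside the rule for named genes, after their values were seen. RED1, MEK1, IME1, DAN1 and SPS100 are also named outside that rule.

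**Figure D2:**
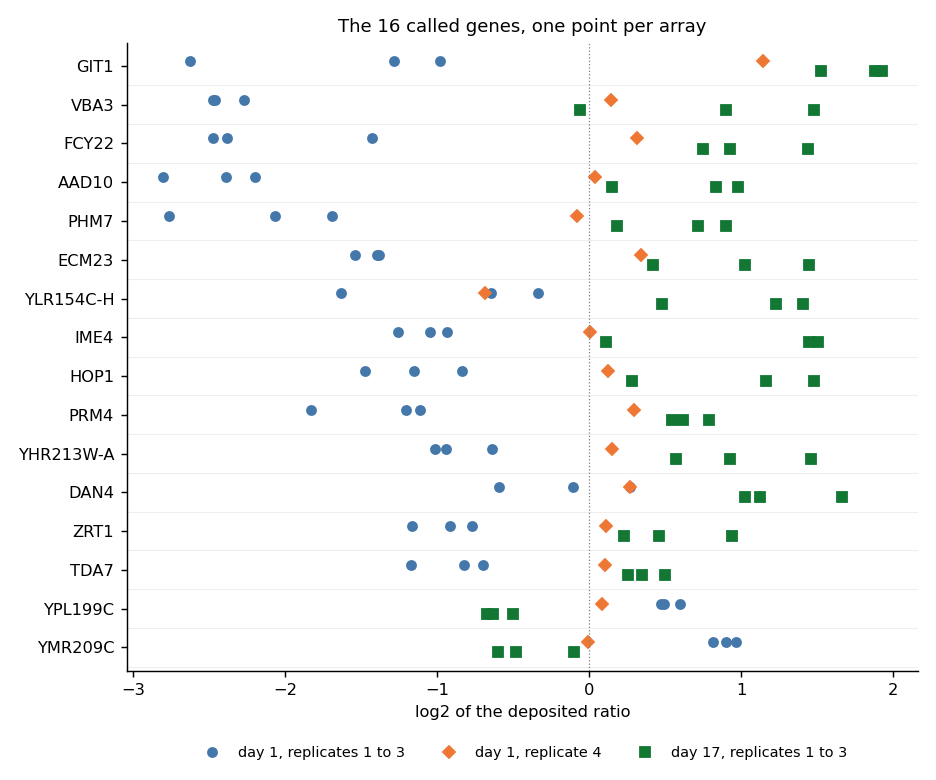
Log2 ratio (horizontal axis) of each of the 16 genes called in day 17 against day 1 on every array of the 2 days, with blue circles for day 1 replicates 1 to 3, orange diamonds for day 1 replicate 4 and green squares for the 3 arrays of day 17. The green squares lie beyond every day 1 array in 15 genes, all but VBA3, and in 14 genes the diamond is the day 1 point nearest to the day 17 mean, with a tie in DAN4.

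The meiosis and sporulation list had the highest median change of the 40 lists, 0.89 over its 44 measured genes, against 0.03 over all genes. Its 2 called genes compare with 0.257% of all genes called higher, and 41 of the 44 changes were positive. The list median on the arrays of day 1 was -0.73, -0.38, -1.16 and 0.39, and on those of day 17 it was 0.11, 0.49 and 0.48. Replicate 4 of day 1 thus lay within the range of day 17, and the other day 1 arrays below it. Without replicate 4 the median change was 1.17, and 22 genes (50.0%) were called higher and 0 lower, against 7.53% of all genes higher. The 22 covered early genes of recombination, such as HOP1, RED1 and MEK1, and later genes of the spore wall.

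The genes that differed most in this list without replicate 4 belong to spore formation. OSW1 (YOR255W), needed for the outer spore wall, had log2 ratios of -2.68, -1.97, -3.51 and 2.18 at day 1 and 1.33, 1.90 and 1.46 at day 17. Replicate 4 of day 1 was above all 3 arrays of day 17, and the change of 3.06 ± 0.84 with all arrays was not called (limma adjusted p = 0.0843). Without that array it was 4.28 ± 0.49. SMK1 (YPR054W), a protein kinase of spore wall assembly, was at 2.37 ± 0.77 with all arrays and at 3.31 ± 0.59 without replicate 4, and SPS2 (YDR522C), a spore wall protein, at 2.29 ± 0.76 and 3.18 ± 0.61. For neither gene was the change with all arrays called, with limma adjusted p of 0.114 and 0.118. Replicate 4 of day 1, at 1.92 in SMK1 and 1.83 in SPS2, again lay above all arrays of day 17, which reached 1.65 and 1.55.

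Outside the list, the 12 genes with the highest change without replicate 4 included further genes of sporulation. DTR1, which exports dityrosine for the spore wall, stood at 3.80 ± 0.57, LDS2, a spore wall protein on lipid droplets, at 3.90 ± 0.43, and SPO75 at 3.41 ± 0.40. With all arrays these 3 were at 2.81 ± 0.77, 2.80 ± 0.75 and 2.59 ± 0.60 and were not called. Replicate 4 of day 1 lay above every day 17 array in LDS2 (1.33 against at most 1.21) and within the day 17 range in DTR1 and SPO75. YGL138C at 4.45 ± 0.72 and RRT5 at 4.34 ± 0.78 were the highest of all without replicate 4. With all arrays they were at 3.22 ± 0.97 and 3.15 ± 0.99 and were not called (limma adjusted p = 0.0982 and 0.107). In both genes replicate 4 of day 1, at 1.84 and 2.29, lay above every day 17 array. SPS100, a spore wall gene left out of the test because log phase gave no value, stood at -1.84, -1.79, -2.05 and 0.04 at day 1 and at 0.12, 0.28 and -0.00 at day 17.

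The 6 meiotic marker genes fixed as a check ranged from -0.15 to 0.88, and 0 of them were called with all arrays. The kinase gene IME2 was at 0.88 ± 0.34 and the recombinase gene DMC1 at 0.40 ± 0.30. SPO11, whose product cuts DNA to start recombination, was at 0.41 ± 0.38, and SPS4 at 0.55 ± 0.35. NDT80, the transcription factor of middle sporulation, was at -0.08 ± 0.27, and DIT1, the dityrosine synthesis gene, at -0.15 ± 0.30. Without replicate 4 only IME2 of the 6 was called, at 1.26 ± 0.28. IME1, the transcription factor that starts meiosis, stood at -0.16, -0.51, -0.31 and -0.08 at day 1 and at 0.74, 0.22 and 0.17 at day 17. Its arrays did not overlap, the change of 0.64 ± 0.25 was not called (limma adjusted p = 0.176), and its mean at day 10 was 2.64. The values are ratios, so none of them tells whether a marker was expressed at all.

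The list of alpha-specific and haploid mating genes had a median change of -0.55 over 18 genes, with 0 called. Its median was 0.53, 0.36, 0.55 and -0.04 on the day 1 arrays and -0.03, -0.20 and -0.07 on the day 17 arrays, so replicate 4 of day 1 again lay with day 17. MF(ALPHA)1 (YPL187W), the main gene of alpha-factor, stood at 3.39, 3.10, 3.10 and -0.72 at day 1 and at -0.45, -0.51 and -0.96 at day 17. Its change of -2.86 ± 0.70 was not called with all arrays (limma adjusted p = 0.0724) and was -3.84 ± 0.45 without replicate 4, the lowest change of all genes in that fit. Group means of MF(ALPHA)1 were 3.49 in log phase and 2.60 in the chemostat, close to day 1 replicates 1 to 3. In stationary phase the mean was 0.12, and at day 0 it was -1.75, below every day 17 array.

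STE3 (YKL178C), the receptor for the pheromone of a cells, stood at 1.46, 1.71, 1.61 and -0.47 at day 1 and at -0.07, -0.67 and -0.51 at day 17. The change was -1.49 ± 0.41 with all arrays (limma adjusted p = 0.083) and -2.01 ± 0.30 without replicate 4. FAR1, which arrests the cell cycle on pheromone, was at -1.57 ± 0.50 and -1.98 ± 0.48 in the same 2 fits. In all, 2 genes of the list were called higher and 6 lower without replicate 4, against 7.53% and 4.54% of all genes. Of the 5 marker genes of alpha cells 0 were called with all arrays and 3 without it, MF(ALPHA)1, STE3 and SAG1.

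The 7 genes specific to a cells, which an alpha strain represses, had a median change of 0.24, with 0 called. Without replicate 4 the genes MFA1, which codes for a-factor, and STE2, the receptor for alpha-factor, were called higher. That was 28.6% of the list, against 12.1% of all genes called and 7.53% called higher in that fit. MFA1 stood at -1.15, -0.08, -2.03 and -0.06 at day 1 and at 0.36, 0.30 and 0.13 at day 17, and STE2 at -0.77, -0.76, -1.44 and -0.01 against 0.17, -0.02 and 0.21. The changes with all arrays were 1.09 ± 0.37 and 0.87 ± 0.28, neither called. MFA2 at -0.16 ± 0.36, STE6 at -0.02 ± 0.32 and BAR1 at 0.08 ± 0.33 were near 0. ASG7 was at 0.74 ± 0.25, or 0.93 ± 0.25 without replicate 4, and AGA2 at 0.24 ± 0.19, neither called in either fit. Ratios do not give the level of these genes in the strain.

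The median change of 127 ribosomal protein genes was -0.49, with 0 called in limma, and 4 of the 127 changes were positive. Array medians were 0.41, 0.39, 0.82 and -0.30 at day 1 and -0.24, -0.15 and -0.15 at day 17, so replicate 4 of day 1 was the lowest of the 7. Without it 31 genes were called lower and 0 higher, against 4.54% of all genes lower, and the median was -0.73. RPL9A (YGL147C), of the large subunit, stood at 1.24, 1.44, 1.96 and -1.60 at day 1 and at -0.97, -0.88 and -1.71 at day 17. Its change was -1.95 ± 0.60 with all arrays (limma adjusted p = 0.107) and -2.73 ± 0.43 without replicate 4. RPS22A, of the small subunit, was at -1.39 ± 0.51 and -2.01 ± 0.40 in these fits. RPL41A was at -2.08 ± 0.52 and -2.61 ± 0.46, but its probe set can bind other transcripts. Many ribosomal protein genes come in near-identical pairs, so signal may be shared between copies.

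The ribosome biogenesis list had a median change of -0.36 over 56 genes with 0 called. Without replicate 4, 6 were lower and 1 higher, or 12.5% called, near the 12.1% of all genes. Array medians at day 1 were -0.17, -0.21, 0.81 and -0.02, so replicate 3 alone was high, and at day 17 they were -0.28, -0.08 and -0.43. DBP2, an RNA helicase, stood at -2.22 ± 0.65 with all arrays and at -2.75 ± 0.62 without replicate 4, called only in the latter. The translation factor list had a median of -0.19 over 33 genes with 0 called. Mitochondrial ribosomal proteins were at a median of -0.13 over 65 genes, and 1 of them was called without replicate 4.

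**Figure D3:**
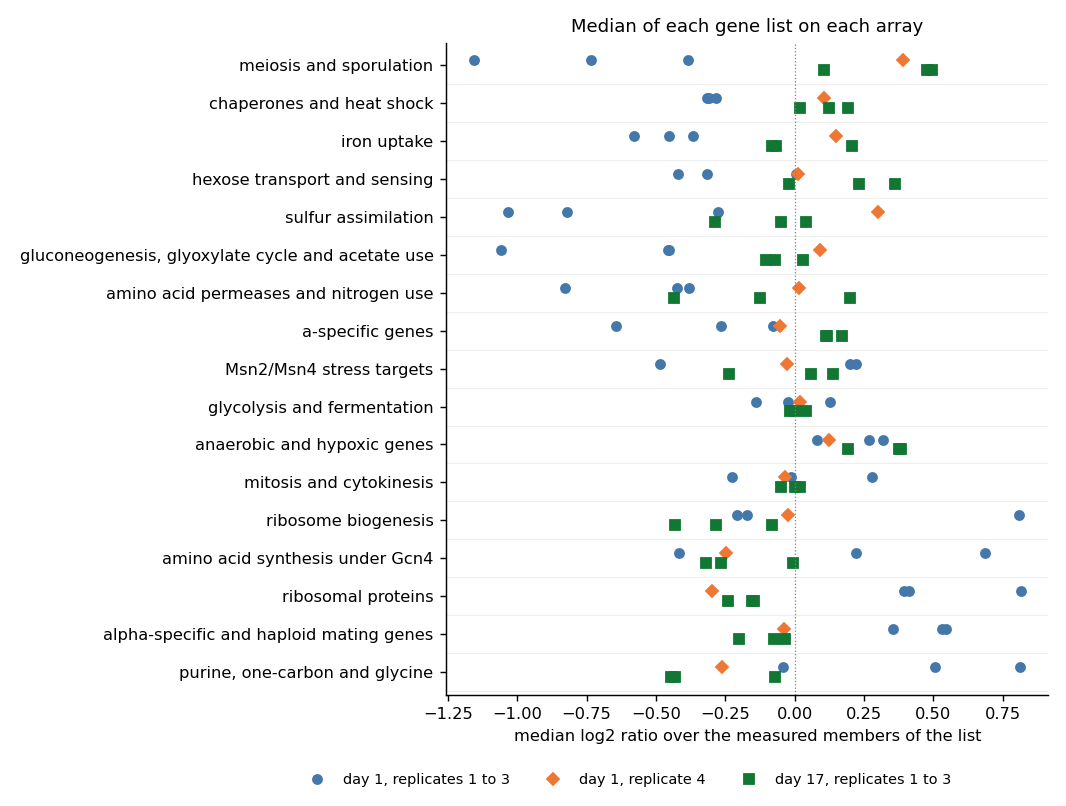
Median log2 ratio over the measured members of a gene list (horizontal axis) on each array, for 17 of the 40 lists, with blue circles for day 1 replicates 1 to 3, orange diamonds for day 1 replicate 4 and green squares for the 3 arrays of day 17. Day 1 replicate 4 lies with the day 17 arrays or next to them in meiosis and sporulation, ribosomal proteins and alpha-specific genes, while the glycolysis medians of all 7 arrays lie between -0.14 and 0.13.

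The list of purine synthesis, one-carbon metabolism and glycine cleavage had the lowest median of the 40, at -0.58 over 37 genes with 0 called. Its array medians were 0.51, -0.04, 0.81 and -0.26 at day 1 and -0.07, -0.43 and -0.45 at day 17, which overlap. Without day 1 replicate 4 the median was -0.73, and 13 genes were called lower and 0 higher (35.1%, against 12.1% of all genes). GCV1 (YDR019C), a subunit of the glycine cleavage complex, stood at 0.14, 0.17, 0.22 and -2.95 at day 1 and at -2.54, -2.82 and -2.45 at day 17. Replicate 4 was below all of day 17, and the change was -2.00 ± 0.84 with all arrays and -2.78 ± 0.78 without it. URA7, a CTP synthase, was at -1.73 ± 0.52 and -2.27 ± 0.45, and MIS1, a mitochondrial enzyme of folate metabolism, at -1.48 ± 0.44 and -2.03 ± 0.33. None of the 3 was called with all arrays.

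Amino acid synthesis genes under the activator Gcn4 had a median change of -0.38 over 51 genes with 0 called. Without replicate 4, 10 were lower and 2 higher (23.5% called, against 12.1% of all genes). LYS9, of lysine synthesis, was at -1.5 ± 0.68 with all arrays and -2.27 ± 0.56 without it. Permeases and genes of nitrogen use had a median of 0.31 over 49 genes with 0 called. Without replicate 4, 8 were higher and 1 lower (18.4% called). BAP3 (YDR046C), a permease for branched-chain and other amino acids, stood at -2.13, -2.47, -3.47 and -1.20 at day 1 and at 0.12, -0.10 and -0.31 at day 17. Its arrays did not overlap, and the change of 2.22 ± 0.54 missed the threshold (limma adjusted p = 0.0724), while it was 2.59 ± 0.53 without replicate 4.

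Sulfur assimilation had a median change of 0.36 over 34 genes with 0 called. Its array medians were -0.82, -1.03, -0.28 and 0.30 at day 1 and 0.04, -0.05 and -0.29 at day 17, so replicate 4 lay above every day 17 array. Without it 12 genes were called higher and 1 lower (38.2%, against 12.1% of all genes), and the median was 0.65. MUP1, the high-affinity methionine permease, stood at -2.40, -3.0, -3.29 and 1.43 at day 1 and at 0.75, 0.25 and -0.45 at day 17. The change was 2.00 ± 0.89 with all arrays and 3.08 ± 0.70 without replicate 4. JLP1, which frees sulfur from sulfonates, was at 1.89 ± 0.78 and 2.94 ± 0.54 in these fits, and neither gene was called with all arrays.

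Among nutrient uptake and stress lists, iron uptake had a median of 0.41 over 33 genes, hexose transport and sensing 0.42 over 23 and chaperones 0.43 over 29, each with 0 called in limma. Without replicate 4, 6 iron genes were called higher and 1 lower (21.2%), 4 hexose transport genes higher and 0 lower (17.4%), and 7 chaperone genes higher and 1 lower (27.6%). All genes stood at 12.1% in that fit, 7.53% higher and 4.54% lower. HXT14 (YNL318C), of the hexose transporter family, stood at -2.56, -0.51, -3.81 and 0.16 at day 1 and at 0.62, 0.50 and 0.62 at day 17. Its groups did not overlap, and the change was 2.26 ± 0.65 with all arrays (limma adjusted p = 0.0895) and 2.88 ± 0.60 without replicate 4. HXT5, a transporter of slowly growing cells, was at 0.95 ± 0.27 and 1.26 ± 0.22. SSA3, a stress-induced member of the Hsp70 family, was at 1.67 ± 0.51 and 2.36 ± 0.34.

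Gluconeogenesis, the glyoxylate cycle and acetate use had a median of 0.46 over 24 genes with 0 called, and 4 higher without replicate 4 (16.7%, against 12.1% of all genes called and 7.53% called higher). Peroxisome and fatty acid oxidation had a median of only 0.07 over 24 genes with 0 called. Without replicate 4, 3 of these were higher and 1 lower (16.7%, against 12.1% of all genes). CTA1 (YDR256C), the peroxisomal catalase, stood at -2.47, -2.86, -4.33 and 0.19 at day 1 and at -0.41, 0.86 and 0.45 at day 17. Day 1 replicate 4 lay within the day 17 range, and the change was 2.67 ± 0.65 with all arrays (limma adjusted p = 0.0724) and 3.52 ± 0.47 without it. FAA2 went the other way, at -1.31 ± 0.35 and -1.57 ± 0.35, and was called lower without replicate 4. ADH2, which turns ethanol back to acetaldehyde, was at 1.03 ± 0.28 and 1.18 ± 0.29. ICL1, of the glyoxylate cycle, was at -0.03 ± 0.56 and 0.06 ± 0.61. Of the glycogen genes, the synthase gene GSY1 was at -1.67 ± 0.55 and -2.30 ± 0.44, and SGA1, a glucoamylase of sporulating cells, at 1.82 ± 0.55 and 2.48 ± 0.44. None of the genes named in this paragraph was called with all arrays.

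Genes of mitosis had a median of 0.00 over 54 genes, and 0 were called. Without day 1 replicate 4, 5 were called lower and 1 higher, or 11.1% against 12.1% of all genes, and 27 of the 54 changes with all arrays were positive. The mitotic cyclin gene CLB2 (YPR119W) stood at 0.94, 1.91, 2.70 and -0.53 at day 1 and at -0.25, -0.18 and -0.18 at day 17. Its change was -1.46 ± 0.56 with all arrays (limma adjusted p = 0.165) and -2.05 ± 0.48 without replicate 4. CHS2, the chitin synthase of the septum, was at -1.47 ± 0.58 and -2.07 ± 0.50, and CLB1, another mitotic cyclin gene, at -1.42 ± 0.69 and -1.98 ± 0.66. The G1 cyclin genes CLN2 at 0.40 ± 0.55 and CLN3 at 0.64 ± 0.55 and the inhibitor gene SIC1 at -0.18 ± 0.25 were not called in either fit.

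Lists that had 0 called genes both with all arrays and without day 1 replicate 4 were the proteasome (34 genes, median 0.07), the respiratory chain and ATP synthase (39 genes, median -0.02), histones (10 genes) and sphingolipid and phospholipid metabolism (31 genes, median 0.07). Glycolysis and fermentation had a median of 0.03 over 27 genes, and without replicate 4 only PDC6, a minor pyruvate decarboxylase gene, was called. Targets of the stress activators Msn2 and Msn4 had a median of 0.10 over 33 genes, and only XBP1, a stress-induced repressor, was called without replicate 4. A missed threshold does not show that these genes stayed the same.

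Of the 34 genes fixed for their part in growth, stress, ageing and life in beads, 0 were called with all arrays. Without replicate 4, ADH2, HXT5 and CLB2 were called, where 12.1% of all genes were called. Changes of the 34 genes with all arrays ran from -1.46 in CLB2 to 1.03 in ADH2. The arrays of the 2 days did not overlap in ADH2, the plasma membrane stress gene HSP30 (0.50 ± 0.21), PDC1 (0.33 ± 0.35), ACT1 and FOB1, of which only FOB1 was lower at day 17. Over all genes the share without overlap was 6.80%. The small heat shock protein genes HSP12 and HSP26 were at -0.07 ± 0.18 and 0.04 ± 0.13, and HSP104, a disaggregase, at -0.02 ± 0.16. CTT1, the cytosolic catalase, was at 0.09 ± 0.31. The deacetylase gene SIR2 was at 0.29 ± 0.27, the quiescence kinase gene RIM15 at 0.14 ± 0.18, the nutrient kinase gene SCH9 at 0.30 ± 0.36 and FOB1, which acts at the ribosomal DNA, at -0.49 ± 0.20. The glucose transporter gene HXT1 at 0.00 ± 0.66, the flocculin gene FLO1 at 0.03 ± 0.47, the anaerobic gene PAU5 at -0.03 ± 0.23 and the lipid transporter gene RSB1 at -0.06 ± 0.48 had differences smaller than their SE. PAU5 has near-identical relatives that its probe set can bind. ACT1, the actin gene, was at 0.16 ± 0.14.

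The days between showed that day 17 was not the far end of the bead course. On the first principal component of the 18 arrays of days 1 to 17, which held 46.1% of the variance, day 1 replicates 1 to 3 scored -38.5, -50.2 and -43.1 and replicate 4 scored 14.4. The day 10 arrays scored 30.7, 52.9 and 48.6, and the day 17 arrays 9.07, 9.89 and 0.09. Days 3 and 5 lay between -26.1 and 17.7. The day 17 arrays thus lay within the range of days 3 and 5 and below all of day 10, and day 1 replicate 4 lay within it too. These scores are a description of the same arrays, with no test.

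**Figure D4:**
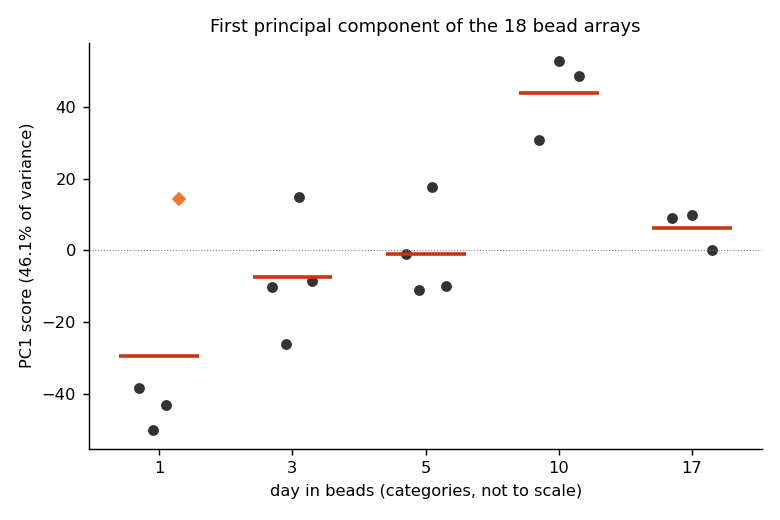
Score on the first principal component (vertical axis, 46.1% of the variance) of the 18 bead arrays by day (horizontal axis, categories not to scale), with black points for arrays, red bars for day means and an orange diamond for day 1 replicate 4. The 3 day 10 arrays score highest, between 30.7 and 52.9, and the day 17 arrays lie between 0.09 and 9.89.

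The mean of the array medians for meiosis and sporulation over days 1, 3, 5, 10 and 17 was -0.47, 0.02, 0.22, 0.84 and 0.36. In the same order it was 0.33, 0.10, 0.08, -0.93 and -0.18 for ribosomal proteins, and for the purine and one-carbon list 0.25, 0.06, -0.02, -0.70 and -0.32. Day 10 was the extreme in each of the 3 lists. OSW1 means ran through -1.49, 0.33, 1.3, 3.32 and 1.56 over these days. DAN4 differed, with means of -0.04, 0.56, 0.96, -0.13 and 1.27, so that day 10 was low. The comparisons of day 10 and of day 17 with day 1 share the day 1 arrays, and none of these orders was tested.

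**Figure D5:**
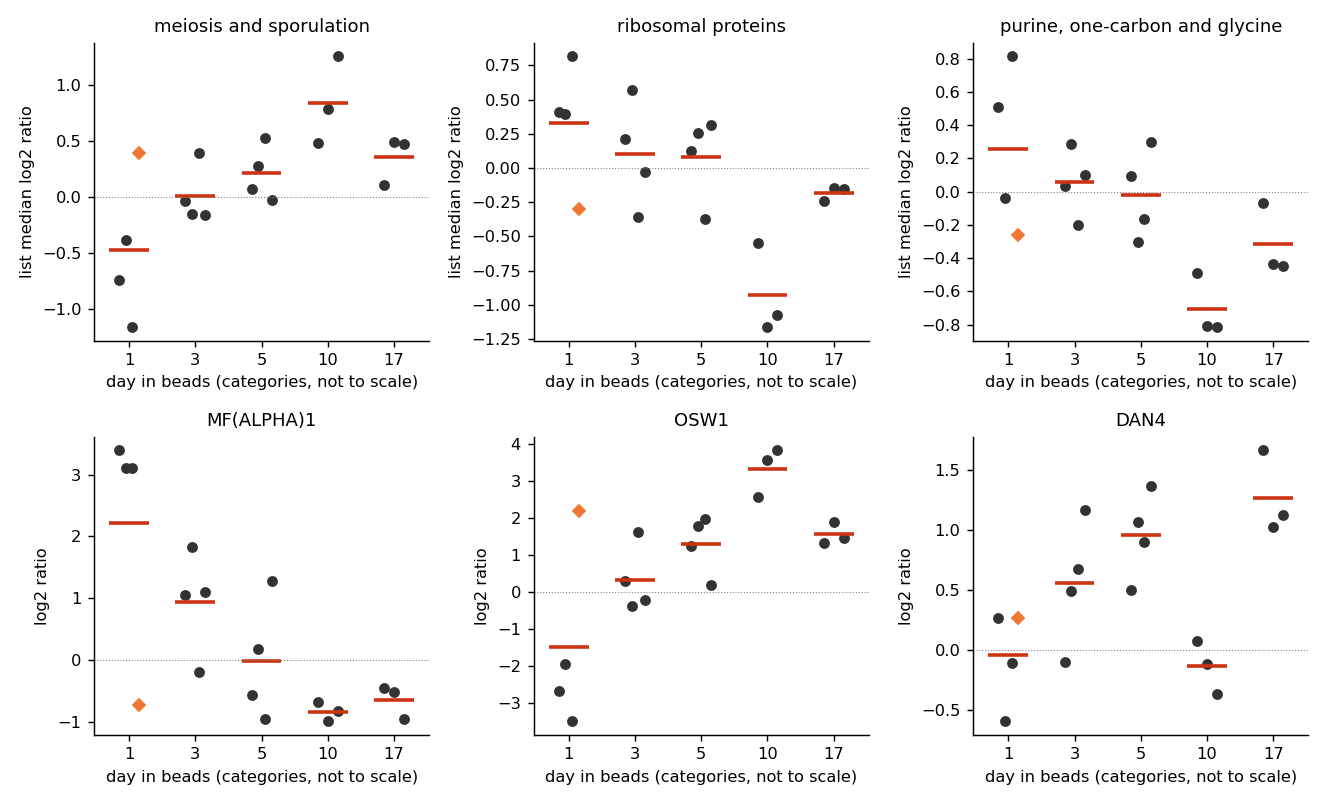
Array medians of 3 gene lists (upper panels) and log2 ratios of 3 genes (lower panels) on the vertical axes against the day in beads (categories not to scale), with black points for arrays, red bars for day means and an orange diamond for day 1 replicate 4. Day 10 is the extreme in the 3 lists and in OSW1, whose mean was 3.32 there and 1.56 at day 17, while DAN4 was lowest at day 10 and highest at day 17.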

How the data were processed

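Total RNA was labelled with biotin and hybridized to Affymetrix yeast arrays with 10928 probe sets. RMA was used for summarising, per the submitters' processing notes; the sources used here do not give its version. The authors deposited linear ratios, which run from 0.0102 to 158.7. Since probe set medians lie at 0.9905 to 1.047 and array medians at 0.998 to 1, the values appear to be relative to each probe set's own median, and brightness is lost. Log2 was taken of the deposited ratios. Of the probe sets, 5498 were listed with exactly 1 S. cerevisiae gene and stood for 5449 genes; in 47 genes with several, that of highest mean ratio was kept. After 4 genes with missing values were left out, 5445 remained, 102 of them on probe sets with the suffix x_at or s_at, which can bind several transcripts. Probe sets with a symbol not matched to the S. cerevisiae gene table (1746), with several symbols (1), unlisted (3470) or controls (213) were not tested.

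limma 3.58.1 in R 4.3.3 fitted 9 group means to the 26 arrays (21.02 residual and prior degrees of freedom), and day 17 minus day 1 was tested with Benjamini-Hochberg adjustment over all 5445 genes. The procedure was tested on simulated data in which each gene had the same spread in every group. The real groups differ in spread, so that test does not cover this difference. The 40 gene lists were written from general knowledge of yeast (RPP1 and MRP8, which code for no ribosomal protein, were taken out of 2 of them after the values were seen) and are described by counts and medians, with no set test. Genes were named by a rule: the 12 highest and the 12 lowest called genes whose arrays do not overlap, for each list described its 3 most changed called members (2 where none was called), 34 fixed genes and the markers. The same rule without day 1 replicate 4 was added after seeing the data. The members and lists were chosen with earlier results of these data known. The labels do not say whether equal replicate numbers pair arrays of the 2 days, and the main model used no pairing. Correlations of deviations were 0.094, 0.264 and -0.164 for equal numbers and -0.411 to 0.311 for unequal ones. So few arrays cannot decide the question. Genome sequence was not used here, so promoter motifs were not analysed and no coordinates are given. matplotlib 3.10.9 (Python 3.11.15) was used for the figures.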

Additional observations from a re-analysis of the deposited data

Results flagged for a closer look

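A test for a single array far from the others of its group was run over the 4 day 1 arrays; the 3 arrays of day 17 were too few for it. In VBA3 replicate 4 of day 1 stood at 0.14, far above the other 3 arrays, which lay between -2.47 and -2.27. In ECM23 it stood at 0.34, against -1.54 to -1.38 on the others, and in YMR209C at -0.0087, below the others at 0.82 to 0.96. The median of the chaperone and heat shock list was 0.10 on replicate 4 and between -0.31 and -0.28 on the other 3. In 2 lists replicate 3 of day 1 was the array apart. The median of autophagy and vacuolar proteases was -0.65 there and between 0.01 and 0.06 elsewhere, and that of peroxisome and fatty acid oxidation was -0.39 there and between 0.05 and 0.13 elsewhere. Chance alone gives such a result in about 1 in 20 groups. Over all 5445 genes it was met in 322 (5.91%), with replicate 4 the array apart in 135, replicate 2 in 84, replicate 3 in 82 and replicate 1 in 21. The part of RNA quality in these values was not tested.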

How the results depend on the processing

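With all arrays 16 genes were called, 6 members of the gene lists among them. With quantile normalization repeated the counts were 51 and 14, with a trended and robust prior 7 and 3, and with array weights, whose estimation did not fully converge, 759 and 234. A test against a 1.5-fold interval, a model of only the 7 arrays, one of only the 18 bead arrays and one of these with the 3′ minus 5′ signal as covariate left 0 and 0 in limma, with 157, 487, 874 and 1042 genes at an unadjusted p under 0.05. The replicate number as a replicate block over the bead arrays gave 35 calls, 12 of them among the 16. Whether equal numbers pair the arrays of the 2 days is not known. Leaving out each array in turn gave from 0 to 657 calls and from 0 to 207 list members. Shifted array medians, averaged probe sets, no fold minimum and leaving out the genes of lowest SD gave 12 to 16 calls. In alternatives chosen after seeing the data, without day 1 replicate 4, quantile normalization gave 692 and 202, only the 2 days 361 and 121, only bead arrays 534 and 157, and the 3′ minus 5′ covariate 600 and 205, each including all 16. The causes were not tested. No change of a named gene that was called turned its sign. A planned filter on dim probe sets was not run, because ratios hold no brightness.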
